A study of Homo sapiens with 6 samples.

Results

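The TRIM genes encode tripartite motif proteins, and 54 of the 18417 named genes on the array had a symbol made of TRIM and a number and a probe set of their own. Members were taken from the platform annotation by that symbol, from probe sets paired with exactly 1 gene, and 47 members had 1 such probe set. For the other 7 the probe set that read highest on average was taken. A further 9 TRIM symbols (TRIM6, TRIM13, TRIM34, TRIM39, TRIM43, TRIM49, TRIM58, TRIM73 and TRIM74) appeared only on probe sets shared with other genes and are not among the 54.

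A TRIM protein is built from a RING domain, which lets it act as a ubiquitin ligase, then zinc-binding B-boxes and a coiled coil, and most carry a C-terminal domain that picks the target. A ligase of this kind brings a ubiquitin-loaded E2 enzyme to its substrate, and the ubiquitin chain either sends the substrate for destruction or builds a signalling platform. Several TRIM genes are induced by interferon and act on viral particles or on the RNA sensors that start the interferon response, while others work in chromatin, the cytoskeleton or muscle. Not all members are ligases of the usual form: TRIM14, TRIM16, TRIM29, TRIM44 and TRIM66 lack the RING domain.

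The cells were HCT116, a long-established line from a human colorectal carcinoma, harvested 48 h after transient transfection with double-stranded RNA oligonucleotides. In 3 samples, labelled siChe-1, the oligonucleotides targeted Che-1, the product of AATF, and in 3 samples, labelled control, they targeted GFP (siControl). All samples came from the same line grown in DMEM with serum, no other treatment is given, and how many different siRNA sequences were used is not stated in the sources used here. Each sample was hybridised to 1 single-colour whole-transcript Affymetrix array from 6 micrograms of total RNA, and the values are log2 RMA intensities.

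The siRNA target did not follow its label. The readings of AATF were 8.53, 8.81 and 8.87 on the arrays labelled siChe-1, against 7.55, 7.75 and 7.55 on those labelled control, so AATF was higher in the group meant to be depleted of it (log2 difference 1.12 ± 0.13 SE, limma adjusted p = 0.00122). Groups are therefore called by their labels, differences are siChe-1 minus control by label, and every direction below would turn if the labels were exchanged. One array also stood apart within its group. The array labelled siChe-1 replicate 1 was the farthest of its 3 from their median for 29 of the 54 members and for 56.0% of all genes.

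Of 17 colon epithelial markers 15 did not pass, KRT19 was lower and ELF3 was higher. At an unadjusted p under 0.05 (limma), 3 of the 17 were lower and 4 higher, where 17.7% of all genes reached it in either direction. EPCAM averaged 10.12 on the arrays labelled siChe-1 and 10.41 on those labelled control, whereas VIL1, CDH17 and CEACAM5 averaged no more than 3.71 in either group. Of 13 leukocyte markers 12 did not pass and CD68 was lower (6.68 on the arrays labelled siChe-1 and 8.23 on those labelled control). With the unadjusted p, 1 leukocyte marker was lower and 2 were higher. None of 11 fibroblast or 10 muscle markers passed by limma, with 1 fibroblast and 1 muscle marker at an unadjusted p under 0.05. The mean over the leukocyte list lay between 3.79 and 3.90 on the arrays labelled siChe-1, against 3.87 to 3.91 on those labelled control. The mean over the muscle list lay between 4.15 and 4.35 on the arrays labelled siChe-1, against 4.05 to 4.10 on those labelled control, and the part of either list in the results was not tested. PTPRC, the common leukocyte antigen, averaged 2.46 on the arrays labelled siChe-1 and 2.41 on those labelled control. Detection calls were not used here, so no low reading is shown to exceed background, and 23 of the 54 members averaged below the median of all named genes. Separate cultures are not mentioned in the labels. The p-values below therefore reflect the spread among 6 arrays, which may be technical, and the small number limits the precision.

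Most of the family did not pass the test, and those that did were mainly interferon-inducible members that were lower in the arrays labelled siChe-1. At an adjusted p under 0.05 (limma, Benjamini-Hochberg over all 18417 genes), 6 members were lower (TRIM21, TRIM14, TRIM26, TRIM25, TRIM38 and TRIM56), 1 was higher (TRIM2) and 47 did not pass, so that 7 of 54 were called where 3.72% of all genes were. The 6 lower members are 11.1% of the family, where 2.52% of all genes were lower. The single higher member is 1.85%, near the 1.19% of all genes that were higher. The median difference over the 54 members was -0.052 on the log2 scale, beside 0.0051 over all genes, and 64.8% of the members had a difference below 0, beside 49.1% of all genes. The median was -0.019 without control replicate 3 and -0.090 with each array centred on its median. An unadjusted p under 0.05 (limma) was found for 17 of the 54 members, 14 lower and 3 higher, and for 3251 of all 18417 genes (17.7%). In bulk RNA, fewer cells of a kind and less RNA per cell cannot be told apart. When siChe-1 replicate 1 was left out, 11 members were lower and 3 higher, and the genes called in all numbered 1565 instead of 685. When control replicate 3 was left out, 3 members were lower, and the genes called in all numbered 272. Leaving out any array other than siChe-1 replicate 1 left 0 members higher.

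**Figure D1:**
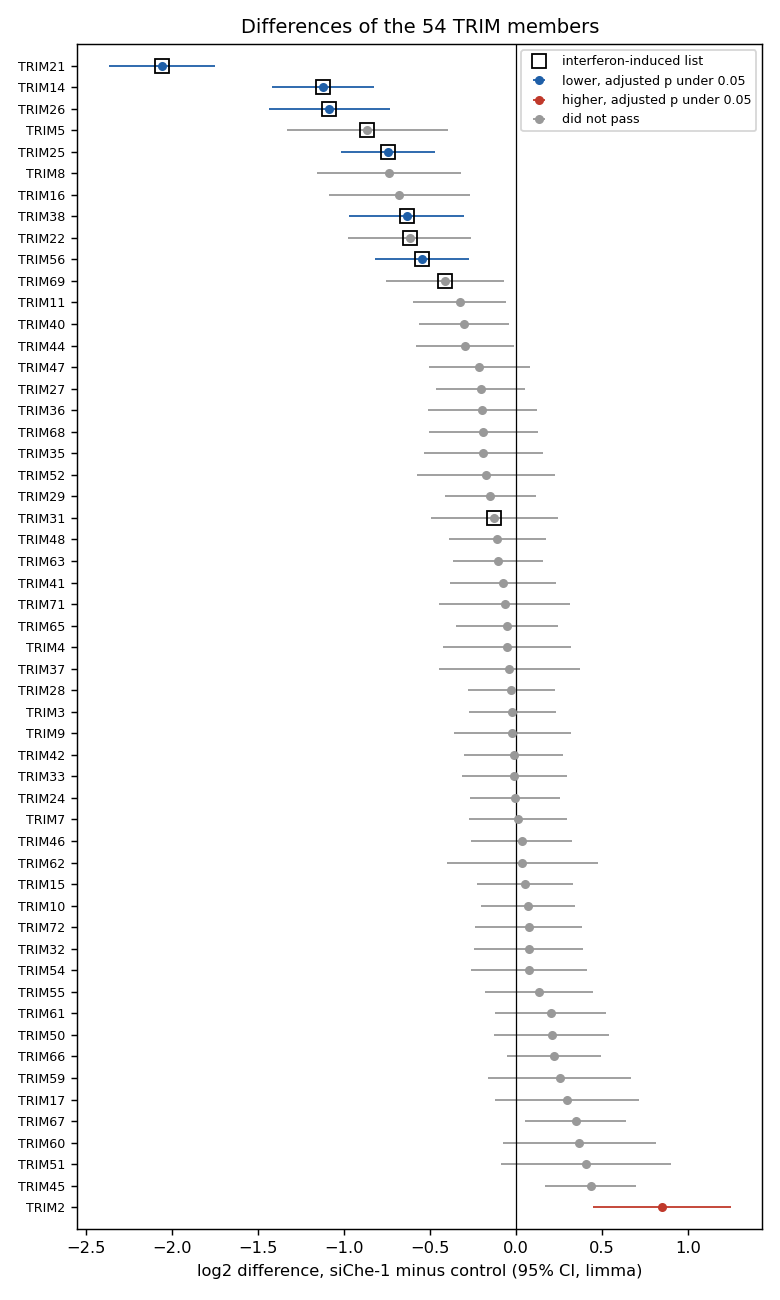
Log2 difference of each of the 54 TRIM members, siChe-1 minus control by label (x axis), with the 95% confidence interval from limma and n = 3 arrays each; squares mark the interferon-induced list. TRIM21 stands at -2.06 at the top and TRIM2 at 0.85 at the bottom, and the squares gather among the lowest differences.

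The groups did not overlap in 17 members, where this held for 24.0% of all genes. In 14 members (25.9%) every array labelled siChe-1 read below every array labelled control, where 13.3% of all genes did so, and in 3 members (5.56%) every array labelled siChe-1 read above, where 10.6% of all genes did so. An exact two-sided permutation test of 3 arrays against 3 cannot go below p = 0.1, which is what each called member reached.

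TRIM21 encodes a cytosolic receptor for antibody, which binds immunoglobulin on incoming viruses and targets them for destruction. It read 5.87, 6.12 and 6.06 on the arrays labelled siChe-1, against 7.90, 8.02 and 8.30 on those labelled control. The groups lay far apart compared with their spread, at 6.02 ± 0.13 and 8.07 ± 0.20 (SD, n = 3 each). TRIM21 was 4.17-fold lower, a log2 difference of -2.06 ± 0.14 (SE, 95% confidence interval -2.37 to -1.75, limma adjusted p = 1.86e-05). It passed without any 1 array, with adjusted p at most 0.000498, and no other member differed by as much.

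TRIM14, a mitochondrial adaptor of RNA sensing that lacks the RING, read 6.65, 6.85 and 6.45 on the arrays labelled siChe-1 and 7.71, 7.77 and 7.83 on those labelled control. Its groups did not overlap, and it was 2.18-fold lower (log2 difference -1.12 ± 0.13 SE, limma adjusted p = 0.00114). TRIM26, a ligase known to act on the interferon regulator IRF3, read 6.76, 7.20 and 7.06 on the arrays labelled siChe-1 and 7.98, 7.95 and 8.35 on those labelled control. TRIM26 was 2.12-fold lower (log2 difference -1.08 ± 0.16 SE, limma adjusted p = 0.00416). A further TRIM26 probe set gave a difference of -1.10 on the log2 scale, but it read nearly the same on every array and is not independent support. Both genes also passed without any 1 array, with adjusted p at most 0.0143 for TRIM14 and 0.0314 for TRIM26.

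TRIM25 is the ligase best known for attaching ubiquitin chains in the activation of the RNA sensor RIG-I. It read 9.28, 9.10 and 9.01 on the arrays labelled siChe-1, against 9.92, 9.79 and 9.92 on those labelled control. The groups were separated by more than their spread, and TRIM25 was 1.68-fold lower (log2 difference -0.74 ± 0.12 SE, limma adjusted p = 0.00885). The call was lost without control replicate 1 (adjusted p = 0.0594) or control replicate 3 (0.0578).

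TRIM38 and TRIM56 passed narrowly. TRIM38, which restrains signalling from Toll-like and TNF receptors, read 6.42, 6.93 and 6.60 on the arrays labelled siChe-1 and 7.39, 7.15 and 7.33 on those labelled control. Its nearest arrays lay 6.93 against 7.15, so the groups came close but did not overlap (log2 difference -0.64 ± 0.15 SE, limma adjusted p = 0.0478). TRIM56, an antiviral ligase linked to the DNA-sensing adaptor STING, read 6.41, 6.50 and 6.28 on the arrays labelled siChe-1 and 6.87, 6.88 and 7.08 on those labelled control. The difference of TRIM56 was -0.54 ± 0.12 (SE, log2, limma adjusted p = 0.0393), with both groups tight. TRIM38 did not pass when any control array was left out (adjusted p between 0.114 and 0.194, for control replicates 2 and 1) or when siChe-1 replicate 3 was (0.139). TRIM56 passed only without siChe-1 replicate 1 (adjusted p = 0.0231) and reached between 0.0633 and 0.157 without any other single array.

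**Figure D2:**
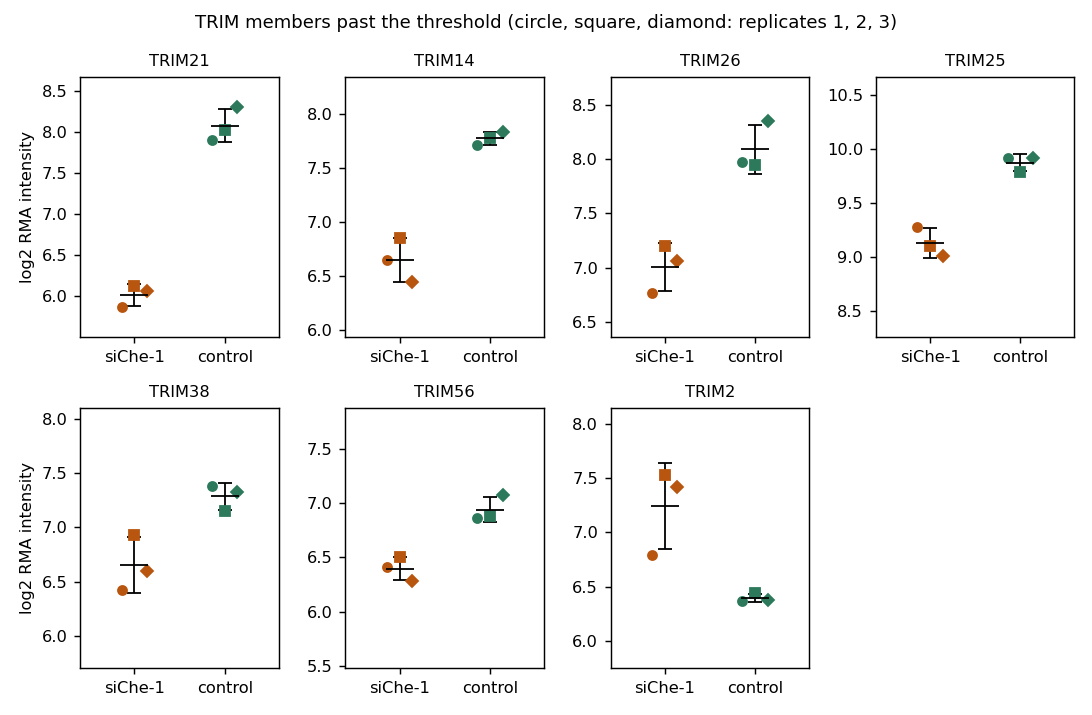
Log2 RMA intensity (y axis, scaled per gene) of the 7 TRIM members past the threshold on each array, siChe-1 left and control right; symbols mark the replicates, and the bars are the mean ± SD of 3 arrays. The groups do not overlap in any panel, TRIM21 shows the widest gap, and siChe-1 replicate 1 of TRIM2 (6.79) lies nearer to the control arrays than the other 2.

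Sequences around the starts of the lower members are shown because interferon-inducible genes are known for an interferon-stimulated response element near the start. Those shown lie before the start, except that of TRIM21, which lies after it. The windows are from RefSeq (GRCh38.p14), from 250 bases before to 50 after each annotated start, and 42 of the 54 members matched. The letters GAAA, any 2 bases and GAAA again (a motif of 10 bases) were searched on both strands, with overlapping matches counted, and a match is shown in capitals, as its reverse complement where it lies on the minus strand of the gene. Every sequence is printed 5′ to 3′ on the strand of its gene.
TRIM21, chr11:4393663-4393692, minus strand, bases 11 to 40 after the start: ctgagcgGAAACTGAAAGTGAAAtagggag
TRIM14, chr9:98119223-98119322, minus strand, the last 100 bases before the start: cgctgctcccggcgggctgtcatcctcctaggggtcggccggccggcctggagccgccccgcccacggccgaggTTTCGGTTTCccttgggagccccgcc
TRIM26, chr6:30213517-30213616, minus strand, bases -210 to -111: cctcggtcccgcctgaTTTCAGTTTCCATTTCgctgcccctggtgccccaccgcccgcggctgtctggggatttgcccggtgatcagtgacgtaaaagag
TRIM25, chr17:56914050-56914149, minus strand, the last 100 bases before the start: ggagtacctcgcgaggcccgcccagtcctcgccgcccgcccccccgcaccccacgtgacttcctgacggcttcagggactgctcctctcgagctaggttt
TRIM38, chr6:25962702-25962801, plus strand, the last 100 bases before the start: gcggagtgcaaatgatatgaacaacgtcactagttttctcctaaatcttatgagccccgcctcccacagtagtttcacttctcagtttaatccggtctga
TRIM56, chr7:101085381-101085480, plus strand, the last 100 bases before the start: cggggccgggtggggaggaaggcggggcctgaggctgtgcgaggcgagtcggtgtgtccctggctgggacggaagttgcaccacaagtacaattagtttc

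TRIM21 and TRIM26 each held 2 overlapping matches, that is 3 GAAA units each 2 bases apart, and TRIM14 held 1 at base -26 from its start. These were also the lower members with the largest differences. The motif was chosen after the values were seen, and a link with the size of the difference was not tested. The windows of TRIM25, TRIM38 and TRIM56 held no match to these letters, which says only that the letters are not in these windows. TRIM5, which did not pass, held a match at base -27, shown in the last 100 bases before its start.
TRIM5, chr11:5685075-5685174, minus strand: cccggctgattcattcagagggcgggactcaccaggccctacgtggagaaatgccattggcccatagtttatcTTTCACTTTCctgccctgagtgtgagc

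Over all genes, 3.57% of 35116 windows held a match, and so did 4.12% of the 14237 tested genes with a window. Among the TRIM members it was 8 of 42, made up of 5 of the 9 on the interferon-induced list (TRIM5, TRIM14, TRIM21, TRIM26 and TRIM69) and 3 of the other 33 (TRIM2, TRIM16 and TRIM44). TRIM2 has 6 annotated windows, more chances for a match than a gene with 1, and its match lies at base -217. A match is a description of letters and not evidence of a bound site.

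The interferon-induced list held 10 measured members, chosen from general knowledge with the fall of interferon genes in these arrays already known, so its direction is not independent evidence. All 10 had a difference below 0, 6 were lower and 4 did not pass, with a median of -0.69 on the log2 scale. The 44 members outside the list had a median of -0.016, and by limma none was lower, 1 was higher and 43 did not pass. At an unadjusted p under 0.05, 5 of the 44 were lower and 3 higher. Of all genes, 2.52% were lower and 1.19% higher by limma, and 17.7% had an unadjusted p under 0.05. Without control replicate 3 the count of lower members on the list was 3. Without siChe-1 replicate 1 it was 8, and 3 members outside the list were then lower too. The 4 that did not pass were TRIM5, TRIM22, TRIM69 and TRIM31.

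TRIM5, which blocks retroviral capsids, lay just outside the threshold. It read 5.70, 6.50 and 6.61 on the arrays labelled siChe-1, against 7.09, 7.16 and 7.16 on those labelled control. The groups did not overlap, but the arrays labelled siChe-1 were widely spread (log2 difference -0.87 ± 0.21 SE, limma adjusted p = 0.0532). Its difference was larger than that of TRIM25, which passed. TRIM5 passed without siChe-1 replicate 1 (adjusted p = 0.0104) or siChe-1 replicate 3 (0.0439), with arrays centred on their medians (0.0428) and when the dimmest genes were left out (0.0404).

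TRIM22, an antiviral ligase whose gene lies beside TRIM5, read 2.85, 2.81 and 2.74 on the arrays labelled siChe-1, against 3.06, 3.52 and 3.68 on those labelled control. The groups did not overlap (log2 difference -0.62, limma adjusted p = 0.0670), but with levels this dim the size is uncertain. It passed without siChe-1 replicate 1 (adjusted p = 0.0434) or control replicate 1 (0.0288). TRIM69, which restricts some RNA viruses, read 3.34, 3.66 and 3.16 on the arrays labelled siChe-1 and 3.62, 3.85 and 3.94 on those labelled control, with overlapping groups (log2 difference -0.41, limma adjusted p = 0.188). TRIM31, a ligase that acts on the adaptor MAVS, averaged 3.82 ± 0.08 and 3.94 ± 0.34 (SD, n = 3 each, arrays labelled siChe-1 and control), which do not differ beyond their spread. Both genes also read low on all arrays.

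**Figure D3:**
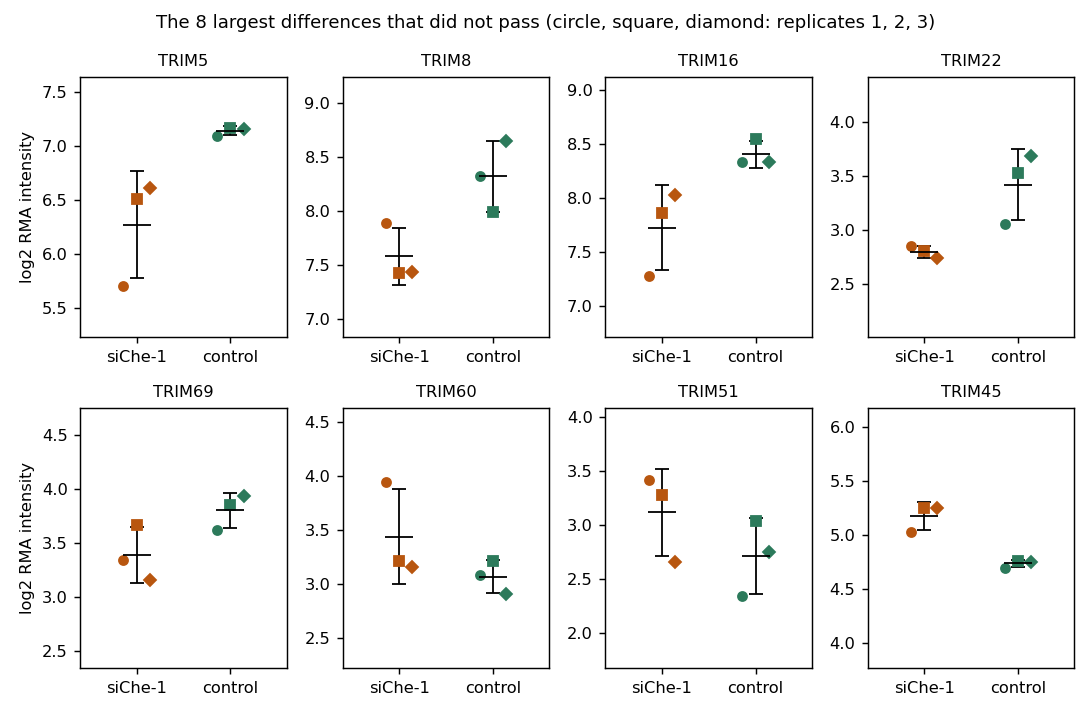
Log2 RMA intensity (y axis, scaled per gene) on each array of the 8 TRIM members with the largest differences among those that did not pass, siChe-1 left and control right; symbols mark the replicates, and the bars are the mean ± SD of 3 arrays. The circle for siChe-1 replicate 1 lies away from the other 2 arrays of its group in TRIM5, TRIM8, TRIM16, TRIM45 and TRIM60.

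Outside that list, TRIM2 was the member that passed. TRIM2 is a ligase with NHL repeats known from neurons, where it binds neurofilament light chain. It read 6.79, 7.53 and 7.42 on the arrays labelled siChe-1, against 6.37, 6.44 and 6.38 on those labelled control. All arrays labelled siChe-1 were higher, but replicate 1 lay nearer to the control arrays than to the others of its group. TRIM2 was 1.80-fold higher (log2 difference 0.85 ± 0.18 SE, 95% confidence interval 0.45 to 1.25, limma adjusted p = 0.0315). The call was lost without any single array other than siChe-1 replicate 1: adjusted p was 0.000267 without that array and between 0.0813 and 0.135 without any other single array.

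TRIM8 and TRIM16 had larger differences than some called members and did not pass. TRIM8, a regulator of NF-kB and p53 signalling, read 7.89, 7.42 and 7.43 on the arrays labelled siChe-1, against 8.32, 7.99 and 8.65 on those labelled control (log2 difference -0.74 ± 0.19 SE, limma adjusted p = 0.0616). TRIM16, which acts with galectins in the clearance of damaged lysosomes, read 7.28, 7.86 and 8.03 on the arrays labelled siChe-1 and 8.33, 8.55 and 8.33 on those labelled control (log2 difference -0.68 ± 0.18 SE, limma adjusted p = 0.0769). In neither gene did the groups overlap, and in both siChe-1 replicate 1 was the array farthest from the others of its group. Without that array both passed (adjusted p = 0.0118 for TRIM8 and 0.0441 for TRIM16), and TRIM8 also passed with arrays centred on their medians (0.0450) and without the dimmest genes (0.0474). A probe set that TRIM16 shares with its near-identical copy TRIM16L differed by -0.38, and signal of the 2 genes cannot be told apart there.

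TRIM45, a filamin-domain member that restrains growth-factor signalling, read 5.02, 5.24 and 5.25 on the arrays labelled siChe-1 and 4.70, 4.76 and 4.75 on those labelled control. Every array labelled siChe-1 was higher (log2 difference 0.44 ± 0.12 SE, limma adjusted p = 0.0776), and without siChe-1 replicate 1 it passed (0.0166). TRIM51 read 3.42, 3.27 and 2.66 on the arrays labelled siChe-1 and 2.34, 3.04 and 2.75 on those labelled control. TRIM60 read 3.94, 3.21 and 3.16 on the arrays labelled siChe-1 and 3.08, 3.21 and 2.91 on those labelled control. Neither gene differed beyond its spread (limma adjusted p = 0.392 and 0.387), both read low, and the other 2 probe sets of TRIM51, whose values are identical, differed by -0.24, against 0.41 for the one used.

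By the domain at the C-terminus, the lower members lay in 2 classes. The SPRY class, whose domain recognises the target, had 27 measured members, of which 5 were lower, none was higher (limma, 0 at an unadjusted p under 0.05 in that direction) and 22 did not pass. All 5 are on the interferon-induced list, which takes 8 of the 27. Among all genes 2.52% were lower by limma, and 17.7% had an unadjusted p under 0.05 in either direction. The other 19 SPRY members had a median of -0.051 and none passed by limma, with 2 of them at an unadjusted p under 0.05. TRIM11, which helps remove misfolded proteins, was 1 of these 2, at 6.80 ± 0.14 and 7.13 ± 0.06 (SD, n = 3 each, arrays labelled siChe-1 and control, limma adjusted p = 0.188). Of 8 members with no such domain in this grouping, TRIM56 was lower and 7 did not pass. Among those were TRIM40 (log2 difference -0.30) and TRIM44 (-0.30), whose groups did not overlap (limma adjusted p = 0.215 and 0.259). TRIM40 read low, averaging 3.45 on the arrays labelled siChe-1 and 3.75 on those labelled control. The other 2 probe sets of TRIM40, whose values are identical, differed by -0.21.

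**Figure D4:**
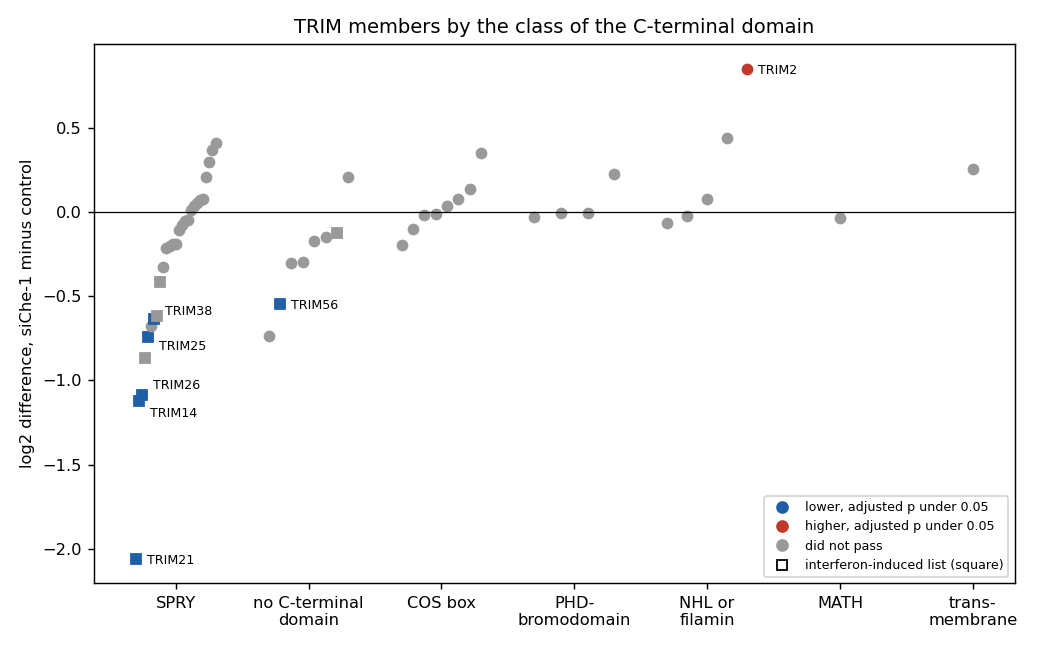
Log2 difference, siChe-1 minus control by label (y axis), of the 54 TRIM members grouped by the class of the C-terminal domain (x axis, points spread in order within a class), n = 3 arrays each; squares mark the interferon-induced list. The lower members are 5 in the SPRY class and TRIM56, and TRIM2 in the NHL class is the higher one.

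The chromatin members showed small differences. TRIM28, the KAP1 corepressor that zinc-finger proteins recruit to silence repeats, read 10.76, 10.76 and 10.73 on the arrays labelled siChe-1 and 10.74, 10.71 and 10.88 on those labelled control. Its difference was -0.028, with a 95% confidence interval of -0.28 to 0.22. TRIM24 (-0.0067) and TRIM33 (-0.0095), the alpha and gamma members of this group, had intervals of -0.27 to 0.25 and -0.31 to 0.29. TRIM66, the testis-enriched member, differed by 0.22 and did not pass (limma adjusted p = 0.399). A p that misses the threshold does not show that levels were alike, and the intervals give the range of sizes the spread allows.

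No other member with NHL repeats passed. TRIM71, the developmental RNA-binding ligase LIN41, differed by -0.065 (log2, limma adjusted p = 0.891), TRIM3 by -0.022 (0.947) and TRIM32, mutated in a limb-girdle muscular dystrophy, by 0.075 (0.843). The difference between these genes and TRIM2 was not tested. TRIM37, the MATH-domain ligase of centrosomes and peroxisomes, averaged 9.16 ± 0.39 and 9.20 ± 0.11 (SD, n = 3 each, arrays labelled siChe-1 and control), and TRIM59, anchored in the membrane, 7.27 ± 0.39 and 7.02 ± 0.16. In both, siChe-1 replicate 1 was the lowest array of its group, at 8.74 for TRIM37 and 6.83 for TRIM59.

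The COS-box class, which binds microtubules, had 8 measured members. None passed by limma, and 1 had an unadjusted p under 0.05, as did 17.7% of all genes. That 1 was TRIM67, a neuronal member, at 4.60 ± 0.18 and 4.26 ± 0.11 (SD, n = 3 each, arrays labelled siChe-1 and control, limma adjusted p = 0.198). Its groups did not overlap, which held for 24.0% of all genes. Its relative TRIM9 differed by -0.020. The muscle ligases TRIM63, TRIM55 and TRIM54 (MuRF proteins) averaged 2.90, 3.12 and 4.87 on the arrays labelled siChe-1 and 3.0, 2.99 and 4.79 on those labelled control. TRIM72, the membrane-repair protein of muscle, averaged 6.58 on the arrays labelled siChe-1 and 6.51 on those labelled control. The 10 muscle markers themselves averaged between 2.24 and 6.75 on the arrays labelled siChe-1 and between 2.27 and 6.49 on those labelled control. Detection calls were not used, so whether TRIM63, TRIM55, TRIM54 or TRIM72 exceeded background was not tested.

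In all, 43 of the 54 differences were smaller than 0.5 on the log2 scale in either direction, and 19 were smaller than 0.1. Of the 47 members that did not pass, 26 had a 95% confidence interval that stayed within 0.5 of 0 on both sides. The remaining members not described above all had overlapping groups except TRIM27, which averaged 8.16 ± 0.05 and 8.37 ± 0.10 (SD, n = 3 each, arrays labelled siChe-1 and control, limma adjusted p = 0.411). Among them TRIM65, which acts on the RNA sensor MDA5, differed by -0.052, TRIM4 by -0.051, TRIM41 by -0.076, TRIM47 by -0.21, TRIM68 by -0.19 and TRIM35 by -0.19. TRIM62 (0.038), TRIM7 (0.013), TRIM15 (0.053) and TRIM10 (0.070) lay on the other side of 0 and did not pass either. TRIM36, TRIM52, TRIM29, TRIM48 and TRIM42 differed by between -0.20 and -0.012, and TRIM46, TRIM61, TRIM50 and TRIM17 by between 0.033 and 0.30, with limma adjusted p of at least 0.463 in all 9.

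The lower members did not come from 1 chromosome. RefSeq places TRIM26 and TRIM38 on chromosome 6, where 7 members were measured, TRIM21 on chromosome 11 with 10, TRIM25 on chromosome 17 with 5, TRIM56 on chromosome 7 with 4 and TRIM14 on chromosome 9 with 2. On chromosome 6 the other 5 members (TRIM10, TRIM15, TRIM27, TRIM31 and TRIM40) did not pass.

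Of 9 measured relatives that carry other symbols, 2 were lower, none was higher by limma (1 at an unadjusted p under 0.05) and 7 did not pass. Over all genes 2.52% were lower, and 17.7% had an unadjusted p under 0.05 in either direction. PML, the TRIM19 protein that builds nuclear bodies, read 5.81, 5.61 and 5.11 on the arrays labelled siChe-1, against 6.77, 6.59 and 7.0 on those labelled control (2.43-fold lower, limma adjusted p = 0.00400). TRIML2, a p53-regulated relative, read 6.56, 7.39 and 7.22 on the arrays labelled siChe-1, against 8.16, 8.47 and 8.33 on those labelled control (2.40-fold lower, limma adjusted p = 0.00704). The groups of both genes lay clearly apart, but TRIML2 did not pass without control replicate 2 (adjusted p = 0.0565) or control replicate 3 (0.0533). MID1 and MID2, the microtubule-bound founders of the COS-box class, differed by -0.24 and -0.11 and did not pass.

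The genes that TRIM proteins work with were called mostly among signalling partners. Of 50 measured partners 8 were lower (where 2.52% of all genes were), none was higher by limma and 42 did not pass, with 13 lower and 4 higher at an unadjusted p under 0.05. Of all genes, 17.7% had an unadjusted p under 0.05 in either direction. The median difference of the 50 partners was -0.091. Of the 17 substrates and signalling partners 6 were lower and 11 did not pass. These lists too were drawn up with results of these arrays known.

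RIGI, the RNA sensor that TRIM25 acts on, read 4.85, 5.75 and 5.40 on the arrays labelled siChe-1, against 9.62, 9.67 and 9.62 on those labelled control. It was 19.7-fold lower by the measured values (limma adjusted p = 7.53e-07). IFIH1, which encodes the sensor MDA5, read 4.22, 4.95 and 4.86 on the arrays labelled siChe-1, against 8.54, 8.44 and 8.25 on those labelled control, or 13.3-fold lower (limma adjusted p = 1.58e-06). Both sensors read so low on the arrays labelled siChe-1 that these folds are uncertain. ZC3HAV1, the antiviral protein ZAP that needs TRIM25 as a cofactor, was 5.40-fold lower, at 7.90 ± 0.32 and 10.3 ± 0.14 (SD, n = 3 each, arrays labelled siChe-1 and control, limma adjusted p = 2.01e-05). ISG15, a ubiquitin-like modifier, read 7.27, 6.35 and 6.25 on the arrays labelled siChe-1, against 9.76, 9.53 and 9.0 on those labelled control, and was 6.99-fold lower (limma adjusted p = 0.000272).

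IRF7, an interferon regulatory factor, was 1.76-fold lower (6.26 ± 0.10 and 7.08 ± 0.09, SD, n = 3 each, arrays labelled siChe-1 and control, limma adjusted p = 0.00400). TRAF3, a signalling ligase below the sensors, was 1.47-fold lower (limma adjusted p = 0.0389), and passed only without siChe-1 replicate 1 (0.0292) when 1 array was left out. The adaptor MAVS differed by 0.37 (limma adjusted p = 0.176), STING1 by -0.094, IRF3 by -0.022 and TBK1 by -0.18, and none of these 4 passed. MAVS, STING1, IRF3 and TBK1 were named after their values were seen.

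Of 12 measured E2 enzymes UBE2L6, which carries ISG15 as well as ubiquitin, was lower and 11 did not pass. It read 7.54, 6.84 and 6.69 on the arrays labelled siChe-1, against 7.77, 7.84 and 8.25 on those labelled control (1.90-fold lower, limma adjusted p = 0.0469), with siChe-1 replicate 1 close to the control arrays. Without siChe-1 replicate 1 its adjusted p was 0.00134, and without any other single array it lay between 0.107 and 0.187. UBE2N, which builds the chains used in RNA sensing, differed by 0.0074 and is named after its value was seen. Of 9 autophagy partners OPTN, an autophagy receptor that binds ubiquitin, was 1.97-fold lower (6.60 ± 0.07 and 7.58 ± 0.12, SD, n = 3 each, arrays labelled siChe-1 and control, limma adjusted p = 0.00138) and 8 did not pass. None of 12 corepressor partners of TRIM24, TRIM28 and TRIM33 passed by limma, with 2 lower and 2 higher at an unadjusted p under 0.05. The 2 higher ones, CHD3 (0.40, limma adjusted p = 0.0962) and HDAC1 (0.36, limma adjusted p = 0.177), came nearest. The 2 lower ones were MORC3 (-0.45) and DNMT1 (-0.29), named after their values were seen. Of all genes, 2.52% were lower by limma and 17.7% had an unadjusted p under 0.05.

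**Figure D5:**
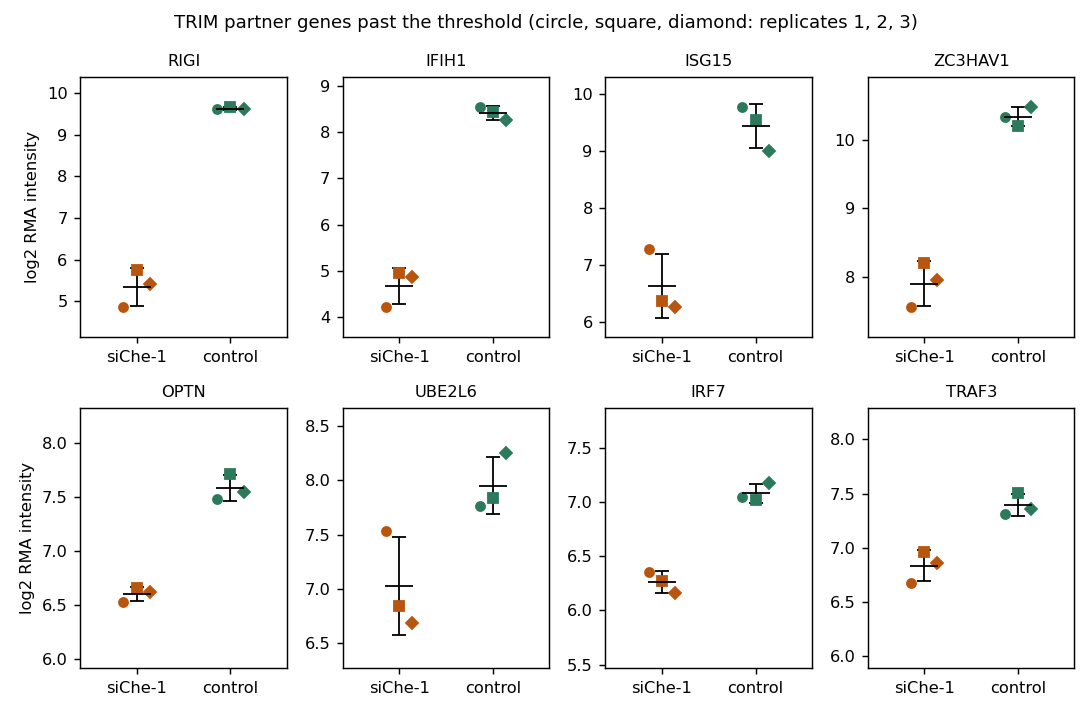
Log2 RMA intensity (y axis, scaled per gene) on each array of the 8 TRIM partner genes past the threshold, siChe-1 left and control right; symbols mark the replicates, and the bars are the mean ± SD of 3 arrays. The groups do not overlap in any panel, RIGI has the widest gap, and in UBE2L6 the circle for siChe-1 replicate 1 (7.54) lies just below the control arrays.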

How the data were processed

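Affymetrix Expression Console produced the deposited values, which are log2 intensities after RMA, according to the submitters' processing notes. No version, settings or genome build are given in the sources used here. RMA normalizes between arrays, so a global shift in RNA content would not show. The array medians over 33297 probe sets lay between 4.95 and 5.05. Of these probe sets 19460 had 1 gene symbol, 1754 had several and 12083 were not listed, which left 18417 genes. RefSeq changed 0 symbols.

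The 3 arrays of each label were compared over all genes with limma 3.58.1 under R 4.3.3, without covariates or a filter on dim genes. Errors of a group are SDs and those of a difference moderated SEs. The code was tested on simulated data. Values per array are given for called members and the 8 largest differences that did not pass, for up to 6 called genes of each other list, and for TRIM28, added after its values were seen; other members are given by their means or differences. Members and lists were chosen with earlier results of these data known, and the motif after the values were seen. Alternatives were another normalization, centring, leaving out dim genes, testing all probe sets, averaging probe sets, a trended robust prior, weights per array, replicate number as a block, a stricter threshold and leaving out each array.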

Additional observations from a re-analysis of the deposited data

How the results depend on the processing

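Over all alternatives, 369 of 370 values of the named members and partners kept their direction. The exception was TRIM51, which turned to -0.023 when its probe sets were averaged. Many of the other values could not turn, because some alternatives leave the difference itself unchanged. These are leaving out dim genes, testing all probe sets, the trended robust prior, the replicate block and the stricter threshold. Averaging probe sets changes a difference only in genes with more than 1 probe set. When 1 array was left out, genes called numbered 272 to 1565 (685 with all arrays), lower members 3 to 11, higher members 0 to 3, lower members of the interferon-induced list 3 to 8 and higher partner genes 0 to 2. Testing all probe set rows gave 294 genes and 0 higher members, and an adjusted p under 0.01 gave 261 genes and 0 higher members. Array weights, which gave siChe-1 replicate 1 a weight of 0.22, gave 2865 genes, 14 lower and 3 higher members and 3 higher partner genes. With these weights 5 of the lower members lay outside the interferon-induced list. TRIM5, TRIM8, TRIM16, TRIM22, TRIM45 and TRIM69, not called at equal weights, passed with them (adjusted p between 0.00114 and 0.0271). Centring also brought TRIM22 past the threshold (0.0494). Another quantile normalization gave 1 higher partner gene. The causes were not tested. Replicate numbers in the labels are not tied to a culture or day. The deviations of same-numbered arrays correlated at 0.23, 0.0641 and -0.0445, and not every array correlated best with its own number. The value of 0.23, for the arrays numbered 1, was the highest of all pairs. These correlations cannot settle whether same-numbered arrays shared a culture or day. With the replicate number as a block, 1145 genes were called and 10 members were lower, 2 of them outside the interferon-induced list; TRIM5, TRIM8, TRIM16 and TRIM22 were gained. TRIM21, TRIM14 and TRIM26 passed under every alternative run. TRIM25 passed under all but those without control replicate 1 or 3, while TRIM38, TRIM56 and TRIM2 each lost the call under several. Of the genes followed over the alternatives, dim readings limit TRIM22, TRIM69, TRIM51 and TRIM60 on all arrays. TRIM45, at percentile 39.9 of mean level, was also among the dimmest 40% that 1 alternative left out. Low readings limit RIGI and IFIH1 on the arrays labelled siChe-1 only.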

Other observations

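The 20 shared probe sets that name a TRIM gene, outside the 54 members, were read in the fit over all rows of the table. The probe set shared by TRIM6, TRIM34 and their read-through transcript read 3.62, 3.62 and 3.59 on the arrays labelled siChe-1, against 4.25, 4.23 and 4.55 on those labelled control. It was the 1 that passed (log2 difference -0.74, limma adjusted p = 0.0442 over all rows), its gene cannot be told apart, and its level is not shown to be above background. In that fit 294 of the 18417 named genes passed. Several of the 20 probe sets hold identical values, such as the 3 of TRIM39. TRIM34 is on the interferon-induced list. The 2 probe sets shared by TRIM50, TRIM73 and TRIM74, near-identical copies, differed by 0.55 and 0.46 and did not pass (limma adjusted p at least 0.0982). Those of TRIM13 with KCNRG differed by between -0.023 and 0.085, those of TRIM39 by -0.28 and those of TRIM43 by between -0.185 and -0.177, and none passed.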
